A study of Mus musculus with 3 samples.

Results

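The genes of the cytosolic ribosomal proteins were described in mouse regulatory T cells, a suppressive branch of the CD4+ lineage whose defining transcription factor is Foxp3. A gene was taken as a member if it had an annotated protein-coding transcript and a symbol of the Rpl or Rps form (Rpl or Rps followed by a number, with the stalk proteins Rplp0, Rplp1 and Rplp2, and Rpsa). This rule found 83 of the 55536 mouse genes in the gene table, 51 of them for proteins of the large ribosomal subunit and 32 for proteins of the small subunit. The cells were primary regulatory T cells from 1 adult male mouse sample, age 4 months, of the strain Foxp3CreERT2 x Rosa26YFP, in which Foxp3 drives a tamoxifen-dependent Cre and a fluorescent reporter sits at the Rosa26 locus. The labels do not say whether tamoxifen was given or how the cells were sorted and trace the cells to a bone marrow haematopoietic cell. Polyadenylated RNA was sequenced in 3 libraries that the labels call technical replicates 1, 2 and 3 of biological replicate 1. There is therefore 1 group and no treated or control sample, and every spread or p-value below measures differences between libraries of the same cells, not between animals.

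Cytosolic ribosomes make nearly all of a cell's proteins. Their small subunit reads the mRNA and their large subunit joins the amino acids, and most ribosomal proteins are present once in each ribosome, encoded in mammals mostly by a single intron-containing gene with many intronless pseudogene copies. In vertebrates the mRNAs of these genes begin with a run of pyrimidines (the 5′ terminal oligopyrimidine tract), through which the mTOR pathway and the protein Larp1 set their translation, and T cells raise ribosome production when they leave the resting state. Several proteins have a second, tissue-restricted paralog, such as Rpl3l in muscle and Rpl10l in testis.

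The libraries held 9299054, 9188612 and 8284381 gene counts for technical replicates 1, 2 and 3, called libraries 1, 2 and 3 below. All 6 regulatory T cell markers listed for the check were detected, with Foxp3 at 27.6, 43.7 and 47.1 TPM (the normalised transcript level, corrected for length and depth so that every library has the same sum). Markers of other cells were not even between the libraries. The 5 red cell genes summed to 1681, 9.02 and 1495 TPM in libraries 1, 2 and 3, the 6 B and plasma cell genes to 2088, 319 and 1471 TPM, and the 4 myeloid genes to 46.2, 12.9 and 37.9 TPM. Library 2 was thus low in all 3 lists. Library 1 stood apart in another way: of 20 bins of gene length, genes in the shortest bin (median 453 bases) had a median scaled count 1.27 times the mean of the libraries in library 1, 0.856 times in library 2 and 0.867 times in library 3. In the longest bin (median 6453 bases) the values were 0.853 in library 1, 1.04 in library 2 and 1.09 in library 3. Most members are short, 72 of the 81 detected ones under 1000 bases, and so lie at the end of the length range that was high in library 1.

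The promoter windows of members are shown first because the family is known for its pyrimidine start, which a minority of the annotated starts held by the letters searched here. RefSeq promoter windows on GRCm38.p6, which reach from 250 bases before to 50 bases after each annotated start, matched 63 of the 83 members by symbol. The sequences below run 5′ to 3′ on the gene's strand, from 40 bases before the start to 20 bases from it on, and capitals mark CTTTCC or CTTTTC within 20 bases of the start. The first 5 hold such a motif at the start or a few bases after it. The last 2 hold none: Rps19, the member with the highest level, whose first of 3 annotated starts is shown, and Rpl10l, which had no counts.
Rps27 (chr3:90213629-90213688, minus strand): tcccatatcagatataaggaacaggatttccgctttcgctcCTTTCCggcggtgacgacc
Rpl38 (chr11:114668540-114668599, plus strand): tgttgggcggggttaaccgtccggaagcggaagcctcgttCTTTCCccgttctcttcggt
Rpl28 (chr7:4792925-4792984, plus strand): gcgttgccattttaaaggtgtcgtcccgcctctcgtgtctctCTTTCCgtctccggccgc
Rpl27a (chr7:109519155-109519214, plus strand): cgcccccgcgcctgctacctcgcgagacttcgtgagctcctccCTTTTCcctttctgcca
Rps10 (chr17:27635225-27635284, minus strand): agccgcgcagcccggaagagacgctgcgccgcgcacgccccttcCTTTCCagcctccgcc
Rps19 (chr7:24884552-24884611, plus strand): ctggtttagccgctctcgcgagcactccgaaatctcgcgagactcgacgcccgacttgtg
Rpl10l (chr12:66284382-66284441, minus strand): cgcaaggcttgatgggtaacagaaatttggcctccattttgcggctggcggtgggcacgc

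CTTTCC or CTTTTC on the gene strand within 20 bases of an annotated start was found in 15 of the 63 members (23.8%), against 1055 of 27025 genes in the whole promoter table (3.90%). The 2 letter strings can overlap by 1 base, as they do in Rpl4. The motif was present in 12 of 39 large-subunit genes and in 3 of 24 small-subunit genes. A start inside an unbroken run of 6 or more C or T, a looser measure added after the first was seen, was found in 19 members (30.2%), against 8.48% of all genes. CCGGAAG, an ETS-type site, was present on either strand in 26 members (41.3%), against 9.93% of all genes. The GC box GGGCGG on either strand was present in 39 members (61.9%), against 38.2% of all genes, and AAGATGGC, a YY1-type site, in 6 members (9.52%), against 3.19% of all genes. TATAAA on the gene strand was no more frequent among members, at 6 of 63 (9.52%), than among all genes, at 9.77%. These are letter matches in windows around annotated starts, which can differ from the starts used in these cells, and no binding was measured.

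Ribosomal protein mRNAs were among the most abundant in these cells. Of the 83 members, 81 were detected (1 TPM or more in each of the libraries), 79 averaged 100 TPM or more and 54 averaged 1000 TPM or more. Their summed level was 177345, 144305 and 152049 TPM in libraries 1, 2 and 3, or 15.8% ± 1.73 of all transcripts (SD over 3 libraries). As shares of gene counts, which favour long mRNAs, they took 7.57% of library 1 (95% Wilson interval 7.55 to 7.59), 5.39% of library 2 (5.37 to 5.40) and 5.71% of library 3 (5.69 to 5.73). These intervals cover counting error only. The median detected member had 1367 TPM, against 20.1 TPM for the 10120 detected protein-coding genes as a whole, members included. Of the 50 protein-coding genes with the highest mean level 24 were members, and of the top 100 there were 48.

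**Figure D1:**
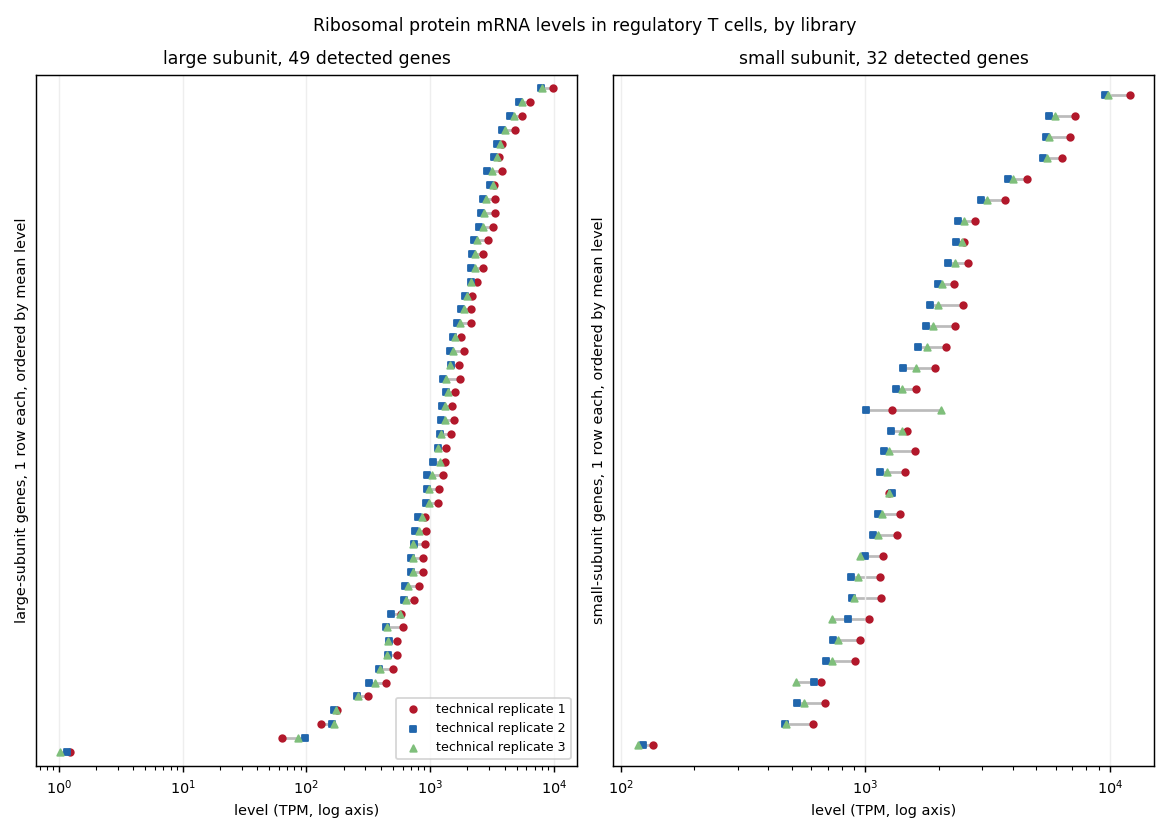
Level of each detected ribosomal protein gene in each of the 3 libraries, in TPM on a log axis, large subunit on the left and small subunit on the right, 1 row per gene ordered by mean and not named; grey lines join the lowest and the highest library, and the 2 genes at 0 are not drawn. The 32 small-subunit genes run from 125 to 10460 TPM, the lowest large-subunit gene stands at 1.14 TPM, and most grey lines are short beside the whole range of levels.

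The members did not share 1 level. The SD of log2 TPM over the detected members was 1.75 ± 0.03 (SD over 3 libraries), and the middle 50% of the members lay between 789 and 2393 TPM. The median large-subunit gene had 1303 ± 155 TPM and the median small-subunit gene 1406 ± 132 TPM, and their ratio was 0.93 ± 0.05. These medians cover all 51 large-subunit and 32 small-subunit members, with the undetected Rpl3l and Rpl10l and the low paralogs included. The small-subunit median was the higher in each library, at 1538, 1273 and 1407 TPM in libraries 1, 2 and 3. The large-subunit medians were 1482, 1202 and 1225 TPM. The order of the genes was nearly the same in each library, with Spearman correlations across the 81 genes from 0.990 to 0.995 (a description over genes of the same cells). In 74 of 80 pairs of neighbours the ranges over libraries overlapped. Most members moved together between libraries, so such a pair can still keep its order in each library. Rps27, for example, had 7188, 5620 and 5940 TPM and Rps14 had 6874, 5448 and 5641 TPM in libraries 1, 2 and 3. The SD over libraries was below 5% of the mean in 5 members, above 15% in 12 and above 30% in Rps3a1 alone.

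Among the abundant large-subunit genes, Rpl32 had 6419, 5204 and 5537 TPM in libraries 1, 2 and 3, and Rpl13a, which in human monocytes also silences inflammatory mRNAs, had 5518, 4447 and 4778 TPM. Library 1 was the highest and library 2 the lowest for both of these. Rpl41, the smallest ribosomal protein, had 4853, 3827 and 4053 TPM. Rpl3, which lies at the peptidyl transferase centre where amino acids are joined, had 3806, 3500 and 3675 TPM. Rplp0, the base of the stalk that recruits elongation factors, had 3599, 3255 and 3462 TPM, and its partners on the stalk were somewhat lower, Rplp1 at 2888 ± 399 TPM and Rplp2 at 2368 ± 267 TPM (SD over 3 libraries). The range of Rplp1 over libraries overlapped that of Rplp0, though Rplp0 was the higher in each library. The range of Rplp2 lay below that of Rplp0.

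The lowest detected large-subunit gene was Rpl39l, a paralog of Rpl39 expressed mainly in testis, with 5, 5 and 4 counts or 1.24, 1.16 and 1.03 TPM. Rpl5, which carries the 5S rRNA into the large subunit and with Rpl11 restrains the p53 inhibitor Mdm2, was listed at only 63.6, 96.6 and 86.1 TPM. Rpl7l1, a paralog of Rpl7 that takes part in making the large subunit, had 132, 162 and 169 TPM. Rpl5 and Rpl7l1 were the only 2 members whose TPM was lowest in library 1. Rpl27a had 177, 166 and 174 TPM, Rpl31 had 316, 255 and 261 TPM, and Rpl27 had 444, 321 and 362 TPM. Most of these low values belong to genes whose reads are shared with copies elsewhere in the genome, described further on.

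Rps19, mutated in human Diamond-Blackfan anaemia, was the highest member of either subunit, with 12037, 9553 and 9790 TPM in libraries 1, 2 and 3. Rps27 had 7188, 5620 and 5940 TPM and Rps14, the gene of the human 5q- syndrome, had 6874, 5448 and 5641 TPM. All 3 were highest in library 1, with libraries 2 and 3 close together. Rps18 had 6334, 5342 and 5526 TPM, and Rps9 had 4562, 3831 and 3993 TPM.

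The lowest small-subunit gene was Rps27l, a paralog of Rps27 that p53 can induce, with 136, 123 and 117 TPM. Rps12 had 613, 468 and 475 TPM. Rps2, at the entry of the mRNA channel, had 658, 616 and 519 TPM, and Rps21 had 905, 691 and 730 TPM. Rps20 had 949, 736 and 769 TPM. No small-subunit member was undetected, and apart from Rps27l the lowest of them was Rps12.

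The paralogs differed in how far they stood below their partners. Rpl22, which mice need for the development of alpha-beta T cells, had 743, 610 and 636 TPM, and its paralog Rpl22l1, a second form of the same protein, had 545, 465 and 460 TPM. Rpl22 was the higher in each library, and the ranges over libraries did not overlap. Rpl7l1 was at 154 ± 19.6 TPM beside 2521 ± 360 TPM for Rpl7, Rps27l at 125 ± 9.59 TPM beside 6249 ± 828 TPM for Rps27, and Rpl39l at 1.14 ± 0.11 TPM beside 426 ± 62.4 TPM for Rpl39 (SD over 3 libraries). Rpl3l, the form of striated muscle, and Rpl10l, the form of testis, had 0 counts in all 3 libraries, where a count of 0 allows up to 3 counts, against 3660 ± 154 TPM for Rpl3 and 1220 ± 109 TPM for Rpl10.

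Beyond the rule, the members shared a compact gene structure. The leading transcript of the 81 detected members had a median of 612 bases and 5 exons, against 2379 bases and 8 exons for the other 10039 detected protein-coding genes. The median gene span was 3368 bases, against 23572 bases, and the median GC content of the transcript was 52.5%, against 49.8%. Small nucleolar RNAs, which guide the modification of ribosomal RNA and are often cut from introns, were annotated inside 30 members (37.0%), against 1.55% of the other detected protein-coding genes. Rpl4 held 5 of them, and Rpl13a, with Snord32a, Snord33, Snord34 and Snord35a, held 4. The members lay on 19 chromosomes, with 14 of them on chromosome 7.

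Many members have near-identical pseudogenes that were listed at high levels in the same table. A search of the coding sequence of each member against all GENCODE M21 transcripts found 583 other genes that match 1 of 77 members at 95% identity or more over 80% or more of its length. Of these copies 565 are annotated as pseudogenes and 24 are identical to the member over the whole coding sequence. Rpl21 had the most, 57, and Rps3, Rpl8, Rps27l and Rpl39l were among the detected members with none. Reads of a member and of such a copy can be told apart only at the bases where they differ or outside the coding part, so levels of members with copies are uncertain. The 3 pairs below, from the mm10 annotation and 60 bases each, show how close the copies are, with capitals at the bases that differ within a pair.
Rpl5 (chr5:107900502-107909005, plus strand), bases 1 to 60 of the coding sequence, identical to its copy Gm15500 (chr7:114705217-114706235, minus strand): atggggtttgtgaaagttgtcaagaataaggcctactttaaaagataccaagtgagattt
Rps3a1 (chr3:86137940-86142702, minus strand), bases 610 to 669: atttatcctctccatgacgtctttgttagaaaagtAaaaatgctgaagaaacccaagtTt
Rps3a2, its copy (chr14:88123017-88123808, minus strand): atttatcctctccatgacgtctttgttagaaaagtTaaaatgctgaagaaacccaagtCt
Rpl32 (chr6:115805505-115808747, minus strand), bases 157 to 216: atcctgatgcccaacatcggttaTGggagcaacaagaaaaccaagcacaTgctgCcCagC
Rpl32-ps, its copy (chr3:69716940-69717445, minus strand): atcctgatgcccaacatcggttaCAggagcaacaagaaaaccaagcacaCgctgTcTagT

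Over the whole aligned coding sequence Rpl5 and Gm15500 had 0 mismatches in 891 bases, Rps3a1 and Rps3a2 had 4 in 792, and Rpl32 and Rpl32-ps had 19 in 404. Of these 3 pairs the identical one had the largest share of counts in the copy. The share did not follow identity throughout: Rps27 and its copy Rps27rt also had 0 mismatches, and the copies of Rps27 held 29.2%. Rpl5 was assigned 485, 542 and 452 counts in libraries 1, 2 and 3, while the transcribed pseudogene Gm15500 was assigned 7366, 5417 and 5226. Copies held 92.3% ± 1.5 of the summed counts of Rpl5 and its copies, 60.01% ± 15.6 for Rps3a1, and 0.0401% for Rpl32, whose copies had 8, 5 and 4 counts beside 17734, 12209 and 11683 for the gene (SD over 3 libraries). With copies added Rpl5 stood at 1156, 1049 and 1105 TPM and not at 63.6, 96.6 and 86.1 TPM.

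Across the module the copies held 16.8% ± 0.42 of the summed counts of members and copies. This share was 10% or more in 32 members, 25% or more in 22 and 50% or more in 14, of which 9 were large-subunit and 5 small-subunit genes. In 19 detected members it was below 1%, and the median was 6.59%. After Rpl5 the highest shares were in Rpl27 (75.3%), Rpl27a (72.0%), Rps23 (63.3%), Rps3a1 (60.01%), Rpl15 (58.3%), Rps16 (57.2%), Rpl31 (56.7%) and Rpl28 (54.8%). Rps6, the target of the S6 kinases, had 53.0% of its counts in copies, nearly all in the processed pseudogene Rps6-ps4. Rps23-ps1, an intronless copy of Rps23, was listed at 4051, 3232 and 3380 TPM, above the 1155, 880 and 896 TPM of Rps23 itself. Adding copies moved 10 members up by 20 ranks or more, among them Rps29 to rank 8, Rps23 to rank 12 and Rpl27 to rank 31, against ranks 31, 56 and 75 without copies. The copies of Rps29 held only 15.1% of the summed counts, but raised its level to 5115 TPM with copies, against 1848 TPM without. Its copy with the most counts, Gm14303, is hardly longer than the 168-base coding sequence. TPM divides counts by an effective length below the gene length, 171 against 346 bases in Rps27. Few counts in so short a copy can thus give a high TPM. The rank and level of Rps29 with copies are therefore uncertain.

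The spread between members was smaller with copies than without, where levels with copies sum the TPM of all copies, very short ones included. Over the 77 detected members other than the paralogs Rpl7l1, Rpl22l1, Rpl39l and Rps27l, the SD of log2 mean TPM was 0.94 with copies and 1.24 without, and the highest level was 24.5 times the lowest with copies and 127 times without. The 1 member with a large spread over libraries behaved likewise. Rps3a1 had 1279, 1001 and 2033 TPM, highest in library 3, where its copies Rps3a2 and Rps3a3 were lowest, Rps3a2 with 2077, 1789 and 1175 TPM and Rps3a3 with 1473, 1214 and 724 TPM. Summed with all its copies Rps3a1 had 4840, 4009 and 3944 TPM, with library 1 highest as in most members.

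**Figure D2:**
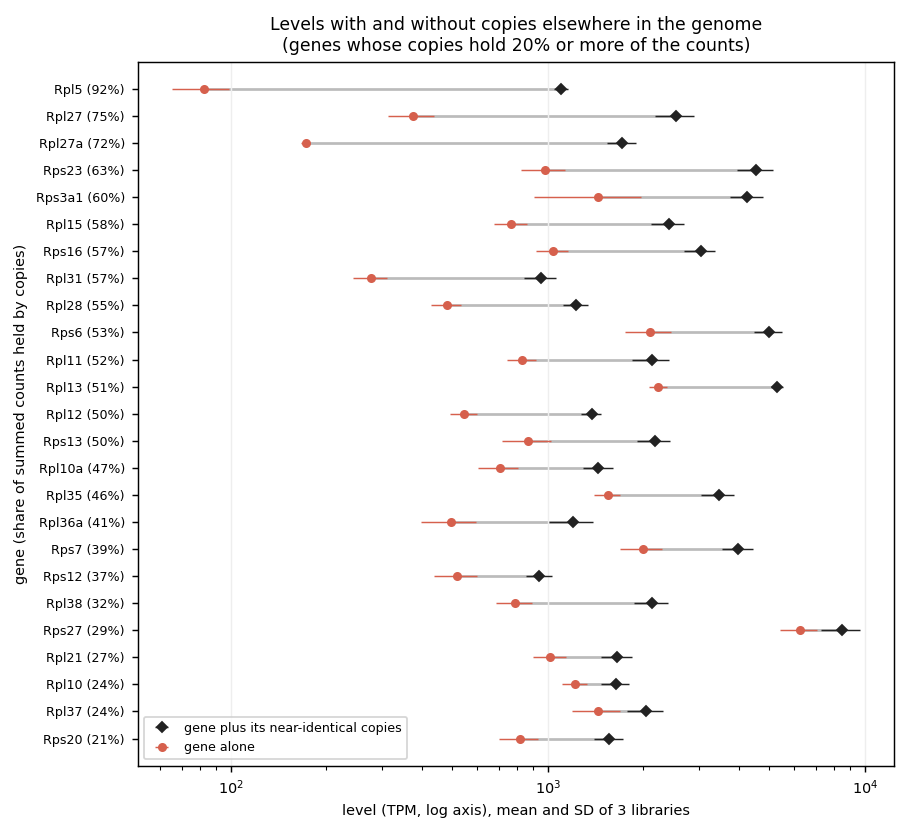
Mean level and SD over 3 libraries, in TPM on a log axis, of the 25 detected ribosomal protein genes whose copies held 20% or more of the summed counts, as listed for the gene (circles) and with its near-identical copies added (diamonds); the share held by copies stands beside each name. Rpl5, at the top, stands at 82.1 TPM alone and at 1103 TPM with copies.

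Most members differed between the libraries by more than counting error. The question was how far technical libraries of the same cells differ in these genes, and a chi-square test of counts against scaled library totals was run on all 13071 genes with 30 or more counts, with Benjamini-Hochberg adjustment over all of them. Of the 80 members tested 78 passed an adjusted p of 0.05, where 54.5% of all genes passed; Rpl3l, Rpl10l and Rpl39l had too few counts. Of these, 77 were higher in library 1 than in both other libraries, against 24.2% of all genes, and 0 were lower in library 1 than in both, against 23.9%. The median log2 ratio of library 1 to the mean of libraries 2 and 3 was 0.60 over the members, 0.58 for the large subunit and 0.63 for the small, and -0.01 over all genes. On this scale 75 members lay between 0.4 and 0.8. Because the test covers counting error only, a gene with many counts passes on a smaller difference. The median detected member had 1367 TPM, against 20.1 TPM for detected protein-coding genes. The shares of all genes given for this and the later library tests are not matched for count, and the part of count depth was not tested.

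The 5 members with the highest ratio were Rpl36a, Rpl37, Rps6, Rpl27 and Rps23. Rpl36a had 174, 99.9 and 102 CPM (counts relative to the scaled library total) in libraries 1, 2 and 3, a log2 ratio of 0.79, and the other 4 had log2 ratios from 0.71 to 0.72. At the other end Rpl7l1 had 194, 197 and 209 CPM and a log2 ratio of -0.07 (adjusted p 0.127 in the chi-square test), and Rpl5 had 54.9, 57.1 and 53.5 CPM and a log2 ratio of -0.01 (adjusted p 0.644). Rps3a1, at 938, 581 and 1196 CPM, was the only member past the test that was highest in library 3. Rps15, which sits near the decoding centre, and Rps25, which some viral mRNAs need, were the least raised of the rest, with log2 ratios of 0.32 (adjusted p 1.0e-21) and 0.40 (adjusted p 2.0e-68).

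Scaling within 20 bins of gene length lowered these differences. Then 65 of the 80 members passed the test, where 44.6% of all genes did, 52 were higher in library 1 than in both others (18.6% of all genes) and 6 were lower (18.5% of all genes). The median log2 ratio of library 1 to the other libraries became 0.10 over the members, from -0.36 in Rpl5 to 0.37 in Rps6, so the members exceeded genes of like length only a little in library 1. On this scale 11 members turned below 0, and 5 of these passed the test: Rps3a1 at -0.28, Rps15 at -0.24, Rps25 at -0.16, Rps10 at -0.06 and Rpl18 at -0.05. The red cell sum of 1681, 9.02 and 1495 TPM was also highest in library 1 and lowest in library 2, and its part in the result was not tested. Without library 1, 45 members differed between libraries 2 and 3, where 17.2% of all genes did. Of these members 43 were higher in library 3 than in library 2 (9.17% of all genes) and 2 were lower (7.99% of all genes). The median log2 ratio of library 3 to library 2 over the members was 0.09.

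**Figure D3:**
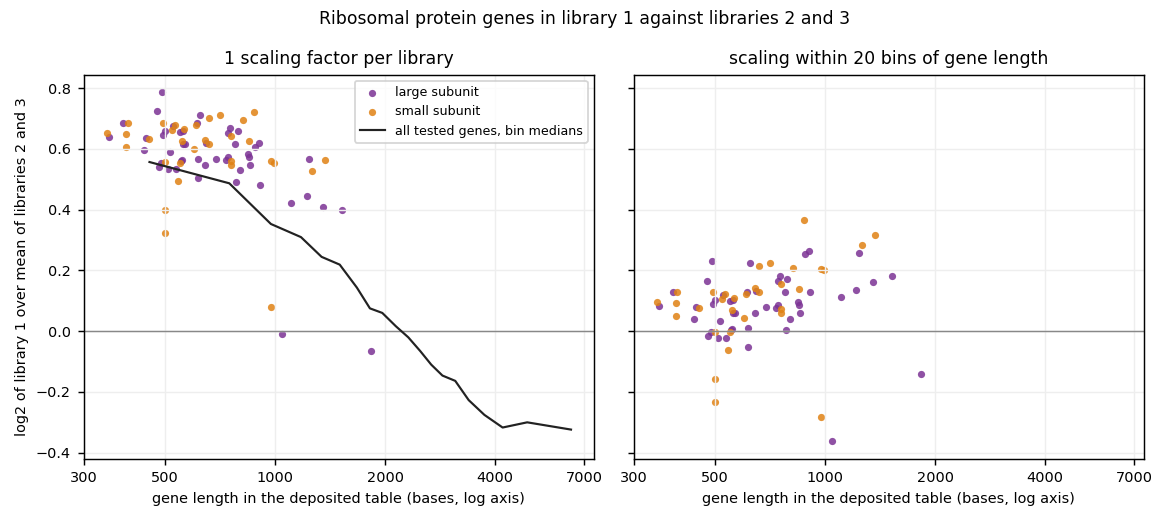
Log2 of library 1 over the mean of libraries 2 and 3 for the 80 tested ribosomal protein genes against gene length in bases (log axis), with 1 scaling factor per library on the left and scaling within 20 length bins on the right; points are genes by subunit and the line gives the medians of length bins over all tested genes. The members lie at the short end, around a median of 0.60 on the left and of 0.10 on the right.

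The deposited data hold other quantifications of the same libraries, which show how far a listed level depends on the method. Whole-number gene counts made with the older GENCODE M4 annotation were set against the main table as CPM over shared genes, centred on the median gene. Of 80 members compared, 57 were within 1.5-fold of the main table, 2 were over 2-fold higher in every library (1.17% of all genes were) and 1 was over 2-fold lower (12.6% of all genes were). The 2 higher were Rpl5, with 4271, 3172 and 3030 whole-number counts in libraries 1, 2 and 3 against 485, 542 and 452 in the main table, and Rpl12, with 7459, 5327 and 5701 against 3010, 2048 and 2169. Both had copies that held 50% or more of their summed counts in the main table, 92.3% for Rpl5 and 50.1% for Rpl12. The 14 members with such a share ran from 0.79 times the main table in Rps6 to 5.80 times in Rpl5, and 10 of them were over 1.5 times. Only 42 of the 583 copies were listed in the older table. The lower member was Rpl41, with 5331, 3910 and 3626 counts against 10569, 7075 and 6712. Next to these, Rps21, Rps23 and Rps16 were 2.03, 2.01 and 1.99 times the main table on average, and Rpl23a and Rpl39 were 0.51 and 0.53 times.

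A second transcript table of the same M21 annotation gave lower TPM for nearly all genes, with a median log2 ratio to the main table of -0.83 over all genes and -0.55 over the members. In that table a single gene, Gm29013, took 26.1%, 19.1% and 19.6% of all TPM in libraries 1, 2 and 3. Without centring 0 members were over 2-fold higher (0.967% of all genes) and 6 were over 2-fold lower (9.73%). Centred on the median gene, 4 members were higher (3.38% of all genes), namely Rps15a, Rps21, Rps27 and Rps29 at 2.60, 2.19, 2.23 and 2.30 times. Then 3 were lower (0.269% of all genes). Rpl12, part of the factor-binding region of the large subunit, had 22.8, 25.7 and 24.1 TPM in the second table against 579, 484 and 570 TPM in the main table. Rps12 had 59.2, 58.2 and 69.5 TPM against 613, 468 and 475 TPM, and Rpl10, which joins the large subunit last and in yeast licenses it for translation, had 184, 175 and 187 TPM against 1346, 1152 and 1163 TPM. The levels of these 3 are thus known only to within the difference between the tables.

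**Figure D4:**
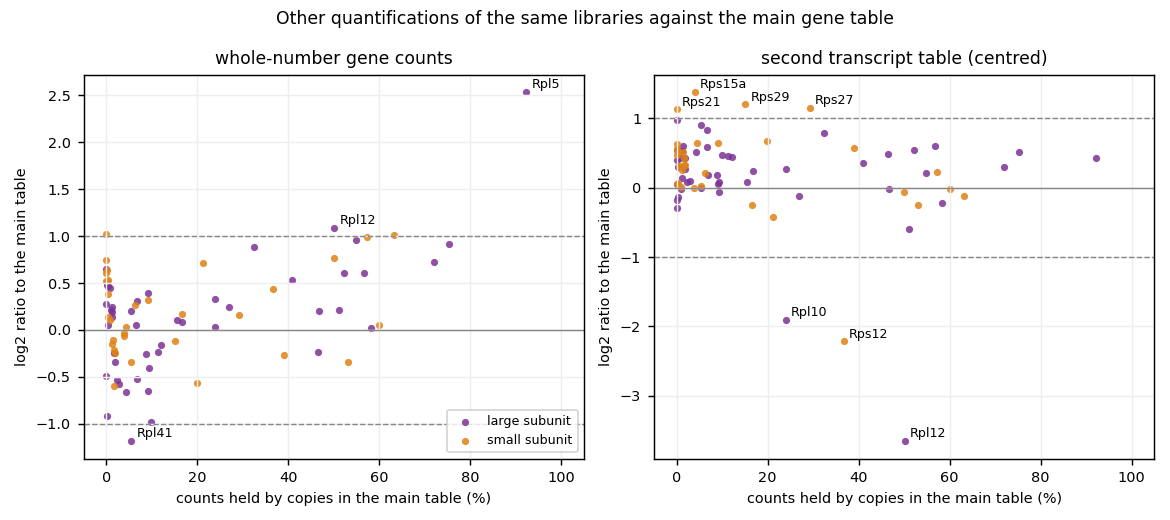
Log2 ratio of 2 other deposited quantifications to the main gene table for each ribosomal protein gene (mean of 3 libraries), against the share of summed counts that copies hold in the main table, in percent; dashed lines mark 2-fold, and genes past it in every library are named. Rpl5 (copy share 92.3%) stands highest for the whole-number counts, and Rpl12, Rps12 and Rpl10 lie lowest for the second transcript table.

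Most members were dominated by 1 transcript. The leading transcript, the one with the highest mean share of its gene's transcripts, held a median of 91.4% ± 0.40 (SD over 3 libraries), and 90% or more in 42 of the 81 detected members. It was annotated as protein coding in 67 members. In the other 14 it was a processed transcript in 7, a retained-intron transcript in 4 and a nonsense-mediated decay transcript in 3. These labels describe the annotated model, and each of the 14 also had a coding transcript in the annotation.

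In Rps26 the retained-intron transcript Rps26-202 held 95.7%, 94.9% and 94.5% in libraries 1, 2 and 3, and the second table gave it 89.7%, 89.5% and 88.8%. In Rps20 the retained-intron transcript Rps20-201 of 582 bases held 91.8%, 92.2% and 91.8%, and the coding transcript Rps20-203, 3706 bases long, held 5.48%, 5.65% and 5.85%. In Rps16 the retained-intron transcript Rps16-203 held 91.1%, 88.9% and 89.8%. In all 3 the leading transcript was shorter than the coding one. Rpl5 was led by Rpl5-205, also of the retained-intron type, with 58.7%, 68.7% and 65.6%, beside 22.9%, 13.1% and 15.3% for its longer coding transcript Rpl5-201; these are shares of transcripts and not of counts. Rpl35 was led by a processed transcript of 541 bases with 96.1%, 96.2% and 93.4%, and Rpsa, also known as a laminin receptor, by the nonsense-mediated decay transcript Rpsa-206 with 67.7%, 67.5% and 65.6%.

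A leading share under 60% was found in 10 members: Rpl10, Rpl13a, Rpl14, Rpl18, Rpl29, Rpl30, Rps3, Rps14, Rps18 and Rps25. Rps14 was split between 2 coding transcripts, Rps14-201 with 53.6%, 51.7% and 48.9% and Rps14-205 with 46.0%, 48.0% and 50.7%, whose order turned in library 3. Rps3, which lies at the mRNA entry and also has a DNA repair activity, was led by the 1908-base Rps3-201 with 58.2%, 54.0% and 55.0%, but the second table gave it 36.1%, 33.7% and 33.2% and gave 61.6%, 62.4% and 62.2% to the 489-base Rps3-205. In 13 members the leader was another transcript in the second table. Rps24, whose transcripts differ by short 3′ exons that change the end of the protein, was led by Rps24-201 with 69.7%, 66.7% and 67.7%, followed by Rps24-202 with 23.4%, 26.8% and 25.3%, and the second table gave the same order.

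**Figure D5:**
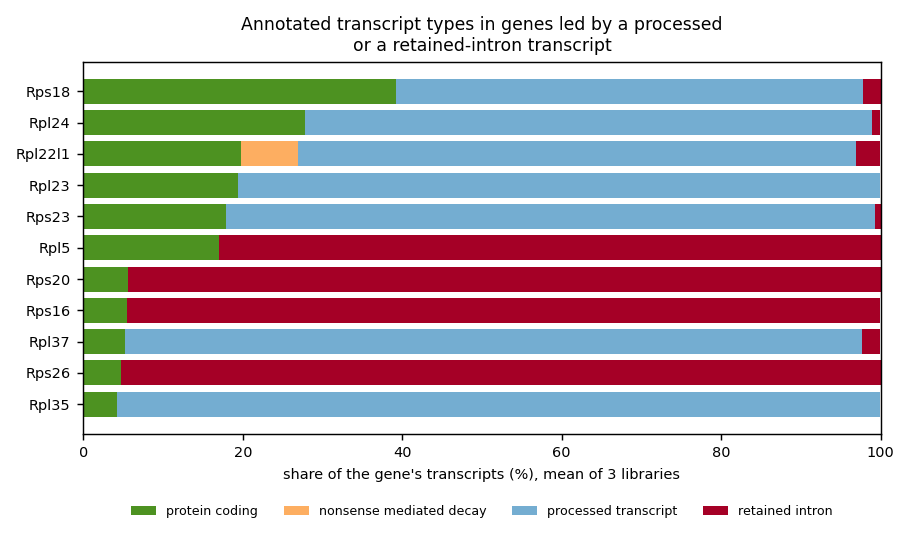
Share of each gene's transcripts by annotated transcript type, in percent (mean of 3 libraries), for the detected ribosomal protein genes led by a processed transcript (7 genes) or a retained-intron transcript (4 genes). The coding share runs from 4.2% in Rpl35 to 39.2% in Rps18.

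Genes that work with the members gave a reference for the shift in library 1. Outside the symbol rule 4 ribosomal protein genes were listed, namely Fau, the scaffold Rack1, Rpl36al and Rps27rt. Fau fuses a ubiquitin-like protein to a ribosomal protein. All 4 were detected and were higher in library 1 than in both others, where 24.2% of all genes were. Their median log2 ratio was 0.71. Fau had 3212, 2458 and 2581 TPM. Rps27rt, an intronless copy identical to Rps27 in its coding sequence, had 2646, 2001 and 2033 TPM. Its reads can be told apart from those of Rps27 only outside the coding part, so it is not independent of that member. Of 27 ribosome biogenesis genes all were detected, at a median level of 54.9 TPM against the 1367 TPM of the members, and 21 passed the library test, where 54.5% of all genes did. Of these 10 were higher in library 1 than in both others (24.2% of all genes) and 7 were lower (23.9% of all genes). Within length bins 4 of the 27 were higher (18.6% of all genes) and 6 were lower (18.5% of all genes), not far from those shares. Npm1, a nucleolar chaperone, was the highest of them with 1169, 1001 and 1054 TPM, and Polr1b, a subunit of RNA polymerase I, had 11.1, 25.5 and 26.2 TPM. The list median log2 ratio was 0.11.

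All 10 genes of the list for control of ribosomal protein mRNAs were detected, and 7 passed the library test, where 54.5% of all genes did. Of these 3 were higher in library 1 than in both others (24.2% of all genes) and 4 were lower (23.9% of all genes). The median log2 ratio was -0.02. Within length bins 5 passed (44.6% of all genes), 3 of them higher (18.6% of all genes) and 2 lower (18.5% of all genes). Larp1, which binds the pyrimidine start, had 18.1, 28.5 and 33.1 TPM, and Mtor had 4.19, 10.2 and 7.74 TPM, both long mRNAs and both lowest in library 1. Cnbp, also a binder of such starts, had 884, 886 and 822 TPM. Of 292 pseudogenes with -ps symbols named for members, 72 were listed at 1 TPM or more throughout, and together they summed to 22037, 18373 and 19433 TPM.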

How the data were processed

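Polyadenylated RNA of 1 biological sample was sequenced in 3 technical libraries. Per the files' readmes and headers, the authors deposited, for each library, expected counts, TPM and FPKM per gene and transcript from alignment to mm10 with GENCODE M21, and the percent of each gene's transcripts (IsoPct). Another deposited transcript table, made from an index of the same annotation, gives TPM and estimated counts. A gene table deposited without a header gives whole-number counts with GENCODE M4. The labels name no aligner, quantifier, version or strandedness.

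Members were found by symbol and transcript type. The members and gene lists were chosen with earlier results of these data known. Spike-in and other entries that are not genes of the annotation, at most 0.135% of counts, were left out of totals. Expected counts were rounded to whole numbers and compared between libraries against totals scaled by TMM (edgeR 4.0.16), by a chi-square test on 13071 genes with 30 or more counts over the libraries; p-values were adjusted by the Benjamini-Hochberg method and called at 0.05. The test covers counting error only: the common coefficient of variation over all genes between libraries was 20.2%, and no condition is compared. Counts were simulated for the same 13071 genes with counting (Poisson) noise alone, without the further variation or the length shift of the real libraries. Calls were made for 72 of 100 genes changed 1.5-fold in library 1, 87 of 100 changed 2-fold and 5 of 12871 left unchanged. The simulation therefore cannot show how often unchanged genes pass in the real libraries. Alternatives were DESeq2 1.42.0 size factors, unscaled totals, no filter, scaling within 20 length bins, other quantifications, added pseudogenes and leaving out each library. Copies were found with BLAST 2.17.0 (95% identity over 80% of the coding sequence), which like centring of the other transcript table was chosen after seeing the data. Named genes were the 6 highest and 6 lowest of each subunit, the paralogs, the 5 highest and lowest ratios of library 1, the members most changed in the other quantifications, and those with a leading transcript under 60% or of a non-coding type. Promoter sequences are from RefSeq. Members on chromosome 18 have no sequence shown. Some genes that this rule or the lists name are not reported here. Intervals are 95% Wilson intervals. Python 3.11.15, scipy 1.17.1 and R 4.3.3 were used.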

Additional observations from a re-analysis of the deposited data

How the results depend on the processing

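The counts of members that differed between libraries (78) and that were higher in library 1 (77) stayed within 1.5 times under every alternative run for them, from 65 to 79 and from 52 to 79, except that 45 members differed without library 1, where leaving out each library gave 45 to 78. Rps3a1 reversed its ratio of library 1 to the others with unscaled totals (-0.031) and within length bins (-0.28), and within length bins so did 10 other members, 4 of which passed the test there: Rps15 (-0.24), Rps25 (-0.16), Rps10 (-0.06) and Rpl18 (-0.05). The 81 detected members ranged from 80 to 81. The share of counts (6.22%) was 7.80% in the whole-number counts and 7.48% with copies by sequence. The median TPM (1341) was 898 in the second table, 1525 with named pseudogenes, 1067 as posterior mean TPM and 1927 with copies. The ratio of large to small subunit (0.93) was 0.81 in the second table, 0.83 with named pseudogenes, 0.76 with copies and 1.23 as a ratio of summed TPM. The SD of log2 TPM (1.75) was 1.57 in the second table, 1.34 over members at 10 TPM or more, 1.27 at 100 TPM or more, 2.30 as log2(TPM + 1) over all members, 1.64 with copies and 1.14 with copies at 10 TPM or more. Members over the fold in the whole-number counts (3) were 21 at 1.5-fold, 1 at 4-fold, 6 with named pseudogenes and 9 with copies, and 3 to 5 when each library was left out. Those in the second table (6) were 33 at 1.5-fold and 3 at 4-fold. The leading transcript's share (91.4%) was 81.5% in the second table. The causes were not tested. Copies by sequence and centring were added after the data were seen. No paired analysis was possible because there is 1 group. Depth limits Rpl3l, Rpl10l and Rpl39l, which had 5 counts or fewer in each library.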
